A study of Mus musculus with 19 samples.

Results

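The let-7 family without let-7d was followed through small RNA sequencing of the mouse CA1. Its members were taken by name: every row of the count tables named for let-7a, let-7b, let-7c, let-7e, let-7f, let-7g, let-7i or miR-98, with either arm and all numbered copies. This gave 19 of the 1148 miRNA names, 8 of them 5p arms and 11 of them 3p arms, and all 19 passed the filter on low counts that left 509 names to be tested. There were 6 libraries from aged mice given SAHA, 5 from aged mice given vehicle and 8 from young mice given vehicle. Aged mice were 20 months old and young mice 3 months old. All were labelled wild type and of strain C57B/6JRj, and CA1, the hippocampal subregion that carries the main hippocampal output, was dissected and frozen before RNA extraction. SAHA, also known as vorinostat, inhibits histone deacetylases. It was taken by mouth at 0.67 g per litre of water with 18 g per litre of cyclodextrin, which made up the vehicle given to both other groups, and the series gives 4 weeks of dosing for the aged mice. The labels do not say that each library is a separate animal, so the tests measure the spread between libraries.

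let-7 was found in Caenorhabditis elegans as a regulator of developmental timing, and in mammals its members accumulate as cells differentiate. LIN28 proteins block maturation of the precursors in immature cells, and mature brain has abundant let-7. Each precursor hairpin is cut into a 5p and a 3p strand. For let-7 the 5p strand is usually kept in the Argonaute protein and pairs with target mRNAs through its seed, while most of the 3p strand is degraded.

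The 8 mature 5p sequences, from RefSeq on GRCm38.p6, are shown because they carry the family's shared target recognition and show how little separates members that are counted apart. Capitals mark the seed, bases 2 to 8 from the 5′ end.
let-7a-5p: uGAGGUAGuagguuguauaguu
let-7b-5p: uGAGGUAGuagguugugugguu
let-7c-5p: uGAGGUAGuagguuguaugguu
let-7e-5p: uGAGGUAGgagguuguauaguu
let-7f-5p: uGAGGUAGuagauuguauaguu
let-7g-5p: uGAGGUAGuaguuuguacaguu
let-7i-5p: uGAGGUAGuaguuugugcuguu
miR-98-5p: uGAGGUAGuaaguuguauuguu

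All 8 were 22 bases long and had the seed GAGGUAG. Counting positions from the 5′ end of let-7a-5p, let-7c-5p differed from it by A19G, let-7e-5p by U9G and let-7f-5p by G12A. let-7b-5p carried A17G and A19G, let-7g-5p G12U and U18C, and miR-98-5p G11A and A19U. let-7i-5p was the farthest from let-7a-5p, with G12U, A17G, U18C and A19U. No difference fell within the first 8 bases. Across the 28 pairs of members the number of differing bases ran from 1 to 5, and 4 pairs differed at 1 base. The sources used here do not give how many mismatches the counting allowed, so reads may have been exchanged between members that differ at 1 base. let-7d-5p has the same seed, as does miR-1961, which had 0 counts in all 19 libraries.

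The 3p arms were more varied than the 5p arms. Of the 11, 5 shared the seed UAUACAA, and the other 6 each had a seed of their own. The ones below are the 3p arms of the precursors whose values are described furthest, and let-7g-3p, whose seed is shifted against the rest.
let-7a-1-3p and let-7c-2-3p: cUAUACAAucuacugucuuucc
let-7b-3p: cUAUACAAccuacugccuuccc
let-7e-3p: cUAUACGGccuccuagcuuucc
let-7f-1-3p: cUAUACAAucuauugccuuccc
let-7g-3p: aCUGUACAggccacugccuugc

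let-7a-1-3p and let-7c-2-3p are the same molecule by sequence, cut from hairpins on different chromosomes. Their rows held equal counts in 14 of 19 libraries, differed by 1 count in 2 more and by at most 4 counts anywhere, at 198 to 372 counts per library. The pair is therefore 1 measurement in 2 rows and cannot be assigned to a hairpin. let-7a-5p, let-7c-5p and let-7f-5p are each encoded by a pair of hairpins, and their counts likewise do not say which hairpin made them. Each had odd counts in 9 to 11 of the 19 libraries, so their reads were not all counted an even number of times.

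On GRCm38.p6 with GENCODE M21, the precursors lay in clusters or alone, each within a host gene or transcript. Mirlet7a-1 (chr13:48538179-48538272, minus strand) and Mirlet7f-1 (chr13:48537829-48537917, minus) were 261 bases apart in exons of the lincRNA 6720427I07Rik, with Mirlet7d 1714 bases beyond Mirlet7f-1. Mirlet7c-2 (chr15:85706603-85706697, plus) and Mirlet7b (chr15:85707319-85707403, plus) were 621 bases apart in an exon of the noncoding Lncppara. Mirlet7f-2 (chrX:151912346-151912428, plus) and Mir98 (chrX:151913214-151913321, plus) were 785 bases apart in an intron of Huwe1, a ubiquitin ligase gene. Mirlet7a-2 (chr9:41536716-41536811, plus) lay in an intron of 3110039I08Rik with Mir100 5211 bases away, and Mirlet7c-1 (chr16:77599657-77599750, plus) in an intron of Mir99ahg with Mir99a 656 bases away. Mirlet7e (chr17:17830352-17830444, plus) lay in an intron of Spaca6, 367 bases from Mir125a. Mirlet7g (chr9:106178840-106178927, plus) was in an intron of Wdr82, and Mirlet7i (chr10:122985640-122985724, minus) in an exon of the pseudogene D630033A02Rik.

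Libraries held 3585489 to 6808281 miRNA counts. The mean correlation of a library with the others of its group, on the log scale across tested miRNAs, ran from 0.990 for aged SAHA replicate 1 to 0.996. The neuronal miRNAs miR-124-3p, miR-9-5p, miR-128-3p, miR-138-5p and miR-218-5p were all detected, as a neuronal tissue would hold, and liver miR-122-5p was at 0 to 1.52 CPM (counts scaled to a common library total) in all libraries. Markers of other cell types were present too. Endothelial and mural markers summed to 25110 to 64415 CPM over all libraries, and erythrocyte markers to 2526 to 3788 CPM. Choroid plexus and ciliated markers summed to 2155 to 3594 CPM, microglia and leukocyte markers to 758 to 1238 CPM and muscle markers to 66.7 to 139 CPM. The 5 neuronal markers summed to 68883 to 79696 CPM in aged SAHA libraries, against 81512 to 88605 CPM in aged vehicle libraries and 78196 to 87827 CPM in young vehicle libraries. The 3 detected oligodendrocyte markers summed to 3803 to 7415 CPM in aged SAHA libraries, against 3882 to 5337 CPM in aged vehicle libraries and 3197 to 4023 CPM in young vehicle ones. The neuronal sum thus did not overlap between aged SAHA and aged vehicle, where 4.91% of single tested miRNAs had groups without overlap. These marker values were scaled to library totals only, without the adjustment for make-up used for the members below. Whether the gap holds after that adjustment was not computed. The part of the neuronal sum in the SAHA results below was not tested. In dissected tissue, fewer cells of a type and less RNA per cell cannot be told apart.

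The 5p members together made up a steady share of CA1 miRNA reads. Their summed share of miRNA counts was 7.75% ± 0.370 in aged SAHA libraries (SD, n = 6), 7.76% ± 0.207 in aged vehicle libraries (n = 5) and 7.56% ± 0.288 in young vehicle libraries (n = 8). The ranges were 7.36 to 8.29%, 7.46 to 8.04% and 7.20 to 8.05% in that order, so all 3 groups overlapped. The summed 3p arms were 0.0358% ± 0.00324 in aged SAHA, 0.0383% ± 0.00151 in aged vehicle and 0.0393% ± 0.00307 in young vehicle libraries.

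let-7f-5p led the family. Over all 19 libraries it averaged 35716 ± 2801 CPM after TMM scaling, which adjusts library totals for their make-up (SD). By its mean share of unadjusted library totals it ranked 6th among the 1148 names. let-7c-5p followed at 11926 ± 1037 CPM, let-7i-5p at 9843 ± 526.3 CPM, let-7a-5p at 8194 ± 680 CPM and let-7g-5p at 5931 ± 447 CPM. These were well separated within each library: every step of this order held in 19 of 19 libraries, although the ranges over libraries of let-7c-5p and let-7i-5p, and of let-7i-5p and let-7a-5p, overlapped. let-7e-5p at 2182 ± 156 CPM and let-7b-5p at 2113 ± 258 CPM did not differ beyond their spread, with let-7e-5p ahead in 12 of 19 libraries. miR-98-5p, which has the let-7 seed under another name, was lowest at 860 ± 59.5 CPM and ranked 82nd by mean share of library totals. All 5p members have the same length, so these levels compare per length too, but how efficiently each sequence was captured into the libraries was not measured.

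**Figure D1:**
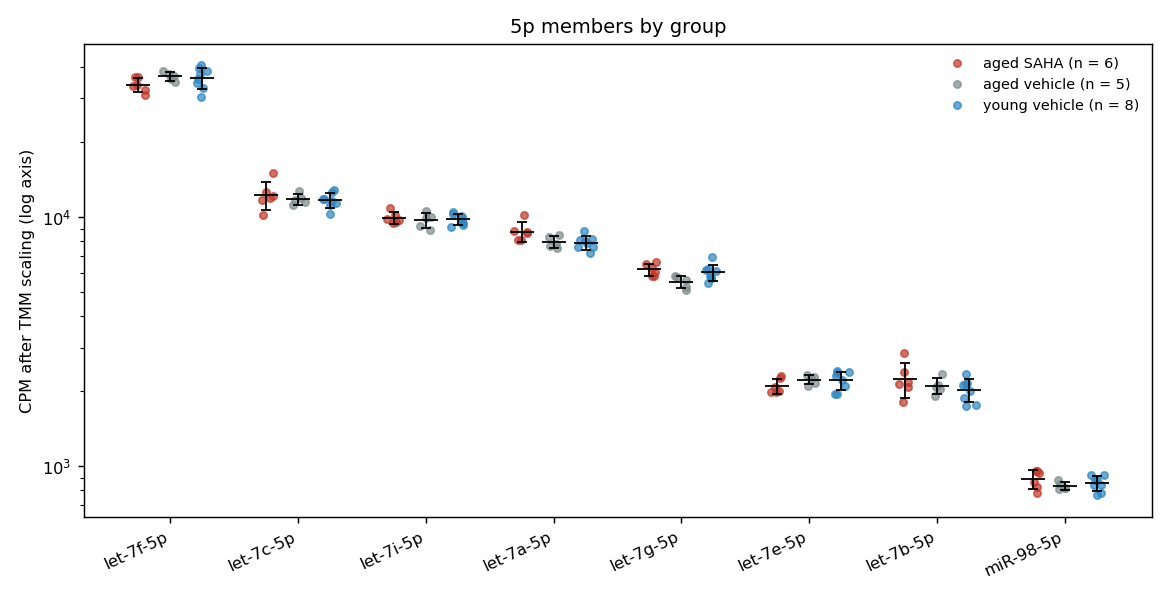
Levels of the 8 let-7 5p members on a log axis, as CPM after TMM scaling, with 1 point per library and bars for the mean and SD of aged SAHA (n = 6), aged vehicle (n = 5) and young vehicle (n = 8). The order of the members, from let-7f-5p near 35716 CPM to miR-98-5p near 860 CPM, spans far more than any difference between groups.

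The 3p arms were rarer and ordered differently. let-7b-3p was the highest at 144 ± 21.8 CPM, although let-7b-5p was only the 7th of the 8 5p members. let-7f-2-3p at 52.7 ± 5.75 CPM, let-7a-1-3p at 50.03 ± 4.18 CPM and let-7e-3p at 46.5 ± 4.98 CPM followed as a group whose ranges overlapped, with the first ahead of the second in 13 of 19 libraries and the second ahead of the third in 15. let-7i-3p at 26.2 ± 3.27 CPM, miR-98-3p at 22.3 ± 2.39 CPM, let-7f-1-3p at 16.4 ± 3.06 CPM and let-7g-3p at 12.6 ± 2.32 CPM came next, each overlapping the next of these 4 in range, while let-7i-3p lay wholly below let-7e-3p and let-7g-3p wholly above let-7c-1-3p. let-7c-1-3p at 6.45 ± 1.12 CPM and let-7a-2-3p at 2.80 ± 0.861 CPM were the lowest, with 15 to 43 and 8 to 26 counts per library. At such counts a fold change is imprecise, which shows in their standard errors.

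**Figure D2:**
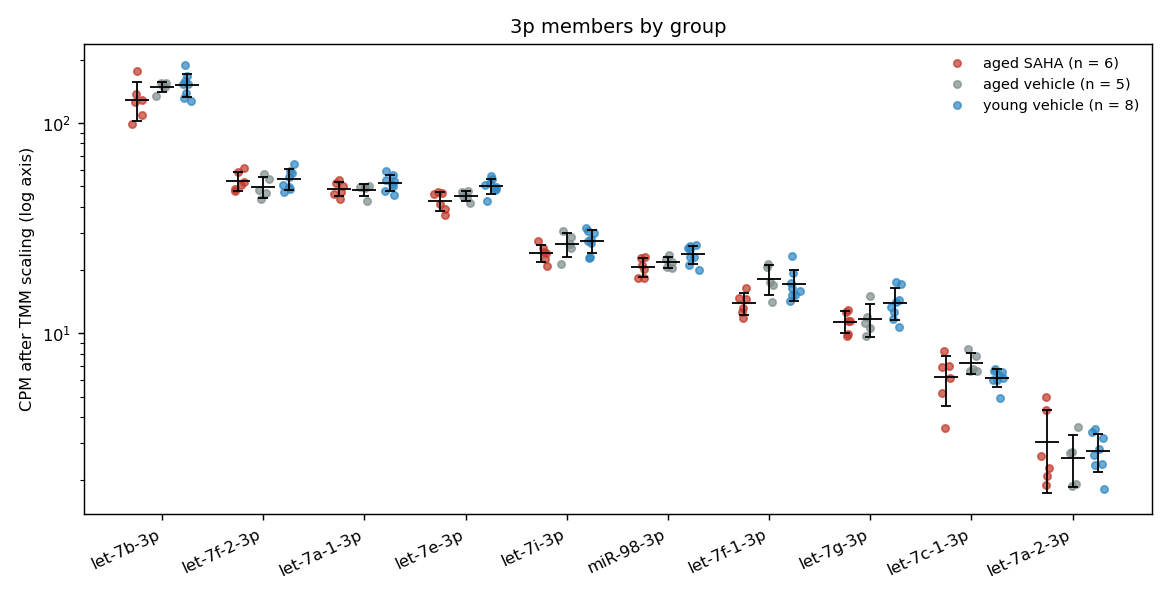
Levels of the let-7 3p arms on a log axis, as CPM after TMM scaling, with 1 point per library and bars for the mean and SD of aged SAHA (n = 6), aged vehicle (n = 5) and young vehicle (n = 8). let-7c-2-3p is not drawn because its sequence is that of let-7a-1-3p. let-7b-3p lies highest at a mean of 144 CPM and let-7a-2-3p lowest at 2.80 CPM.

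The members varied less between libraries of a group, at the median, than all tested miRNAs. Their median biological coefficient of variation in the edgeR fit, the relative spread beyond counting noise, was 0.0978, against 0.135 over all 509 tested miRNAs. It ran from 0.0797 for let-7i-5p to 0.191 for let-7a-2-3p, and the lowest values belonged to abundant 5p members. This is a description of the fit and was not tested.

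For age, aged vehicle mice were set against young vehicle mice, and none of the 19 members passed the test. let-7f-5p, the most abundant, had 34847, 36002, 37039, 37489 and 38581 CPM in aged vehicle libraries in rising order, against a lowest, median and highest of 30444, 36647 and 40692 CPM in young vehicle libraries. The aged libraries all lay inside the young range, and the log2 fold change was 0.02 ± 0.07 (SE). let-7i-5p averaged 9738 ± 673 CPM in aged vehicle libraries, against 9825 ± 482 CPM in young vehicle libraries (SD, n = 5 and 8). For let-7a-5p the mean was 7962 ± 435.5 CPM in aged vehicle libraries, against 7917 ± 498 CPM in young vehicle libraries. The same held for let-7c-5p 11817 ± 603 CPM in aged vehicle and 11716 ± 814 CPM in young vehicle libraries. These means lay closer together than the spread within either group.

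edgeR's quasi-likelihood test with Benjamini-Hochberg adjustment over the 509 miRNAs called 0 of 19 members for age (adjusted p 0.307 to 0.970), against 11 of all tested miRNAs, 2.16%. DESeq2 and limma-voom also called 0. At an unadjusted p under 0.05 there was 1 member, against 15.7% of all tested miRNAs. That member was let-7g-5p, with 5122, 5268, 5595, 5783 and 5796 CPM in aged vehicle libraries, against a lowest, median and highest of 5470, 5960 and 6920 CPM in young vehicle libraries. All 5 aged libraries lay below the young median and 2 lay below every young library. Its log2 fold change was -0.13 ± 0.06 (SE), with an edgeR adjusted p of 0.307, which does not pass.

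The intervals for age were narrow for the 5p arms. Over the 8 of them, log2 fold changes ran from -0.13 to 0.05, and the 95% intervals together spanned 0.845-fold to 1.17-fold. The 3p arms ran from -0.26 for let-7g-3p to 0.24 for let-7c-1-3p, and their intervals spanned 0.661-fold to 1.46-fold. The median log2 fold change was 0.01 for 5p members and -0.11 for 3p members, against -0.003 over all tested miRNAs. Of the 19 members 7 had a positive log2 fold change, against 49.1% of all tested miRNAs, and no member had groups without overlap, against 3.14%.

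SAHA in aged mice was the second comparison, and it too moved no member past the test. let-7g-5p came nearest among the 5p members. It had a lowest, median and highest of 5822, 6135 and 6600 CPM in aged SAHA libraries, against 5122, 5268, 5595, 5783 and 5796 CPM in aged vehicle libraries. Every aged SAHA library lay above every aged vehicle library. The log2 fold change was 0.16 ± 0.06 (SE, edgeR adjusted p = 0.132). It was the only one of 19 members whose groups did not overlap in this comparison, against 4.91% of all tested miRNAs. DESeq2 called it at 0.17 (adjusted p = 0.0387) and limma-voom with quality weights at 0.19 (adjusted p = 0.0347), so the call depends on the tool. Each of these 2 tools called 1 of 19 members and 46 of all 509 tested miRNAs, against 22 of 509 with edgeR.

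let-7a-5p had a lowest, median and highest of 8070, 8670 and 10223 CPM in aged SAHA libraries, against 7500, 7675, 7791, 8340 and 8501 CPM in aged vehicle libraries. The groups overlapped, with 4 of 6 aged SAHA libraries above all aged vehicle libraries, and the log2 fold change of 0.14 ± 0.07 did not pass (SE, edgeR adjusted p = 0.251). let-7f-5p pointed the other way, with 34061 ± 2186 CPM in aged SAHA and 36792 ± 1428 CPM in aged vehicle libraries (SD, n = 6 and 5), a log2 fold change of -0.11 ± 0.07 (SE, edgeR adjusted p = 0.409). let-7b-5p, let-7c-5p, let-7i-5p and miR-98-5p had log2 fold changes of 0.03 to 0.09, and let-7e-5p one of -0.08, and the intervals of all 5 included 0.

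The 3p arm farthest from 0 was let-7f-1-3p. It had a lowest, median and highest of 11.8, 13.9 and 16.4 CPM in aged SAHA libraries, against 14.1, 17.0, 17.6, 20.8 and 21.4 CPM in aged vehicle libraries. All 6 aged SAHA libraries lay below the aged vehicle median and 3 lay below every aged vehicle library. Its log2 fold change of -0.39 ± 0.13 did not pass (SE, edgeR adjusted p = 0.0882), and it rests on 56 to 114 counts per library.

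edgeR called 0 of 19 members for SAHA against aged vehicle, against 22 of the 509 tested miRNAs, 4.32%. At an unadjusted p under 0.05 there were 2, let-7g-5p and let-7f-1-3p, against 19.4% of all tested miRNAs. Intervals of the 5p members together spanned 0.842-fold to 1.22-fold, and those of the 3p arms 0.637-fold to 1.71-fold. The median log2 fold change was 0.07 for 5p members and -0.08 for 3p members, against -0.01 over all tested miRNAs. Of the 19 members 10 had a positive log2 fold change, against 48.7%.

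**Figure D3:**
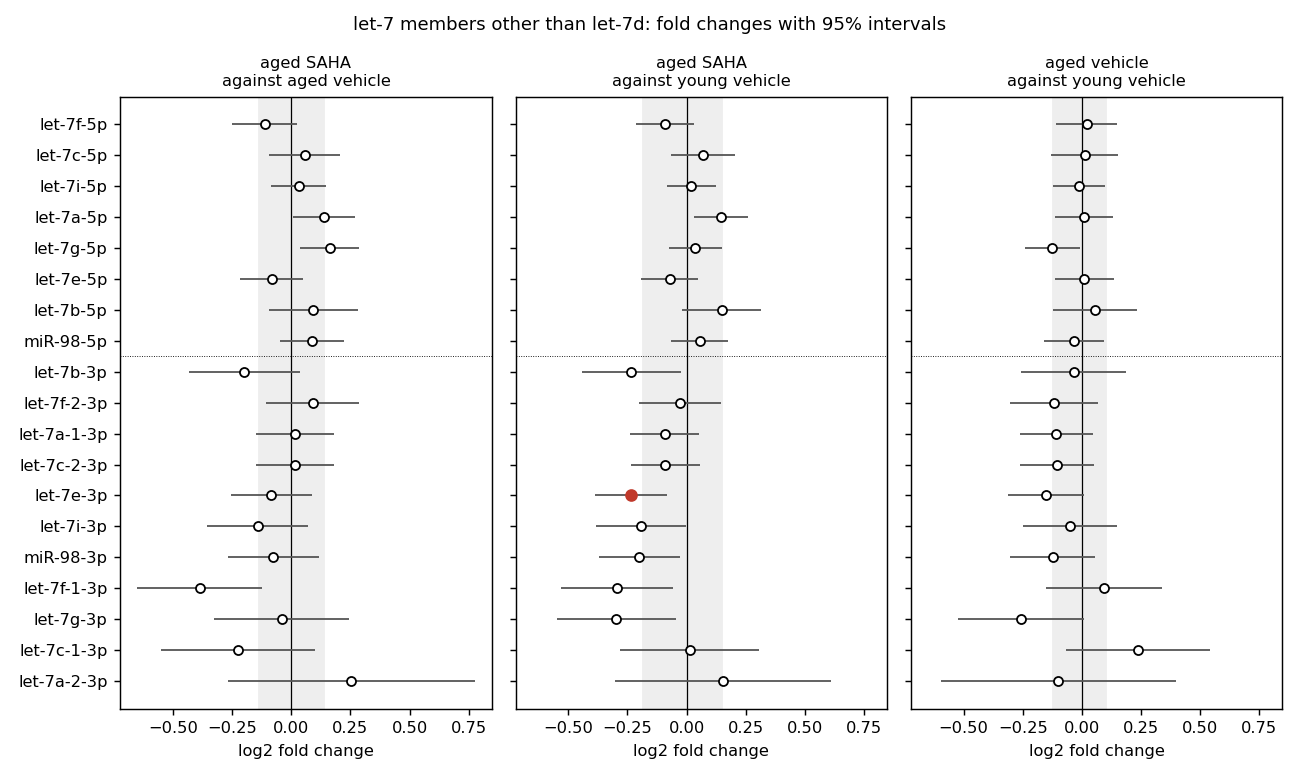
log2 fold changes of all 19 let-7 members with 95% intervals, in 1 panel for each comparison, with 5p members above the dotted line and 3p arms below it. The grey band runs from the lower to the upper quartile of all 509 tested miRNAs, and a filled red point is a call at adjusted p under 0.05. The only filled point is let-7e-3p at -0.24 in aged SAHA against young vehicle mice. The intervals take each SE as that of a normal variable, so some exclude 0 where the unadjusted edgeR p is above 0.05.

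The make-up of the family's 5p reads was also compared between groups. Of all 5p let-7 reads counted here, let-7g-5p was 8.08% in aged SAHA (range 7.56 to 8.84%), 7.16% in aged vehicle (6.78 to 7.45%) and 7.84% in young vehicle libraries (7.27 to 9.02%). let-7a-5p was 11.4% in aged SAHA (11.06 to 12.4%), 10.3% in aged vehicle (10.04 to 10.7%) and 10.3% in young vehicle libraries (9.72 to 11.5%). Both shares were apart between aged SAHA and aged vehicle libraries, and both overlapped with young vehicle libraries. The shares of all other 5p members overlapped between aged SAHA and aged vehicle libraries. How often such shares are apart over all miRNAs was not computed, and the CPM of let-7a-5p overlapped between these groups, as above. let-7f-5p was 44.6% in aged SAHA (41.0 to 47.3%), 47.8% in aged vehicle (46.6 to 49.6%) and 47.1% in young vehicle libraries (43.3 to 49.0%). These shares sum to a fixed total and are given without a test.

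Aged SAHA mice were also set against young vehicle mice, a comparison in which age and drug differ together and which shares its libraries with the other 2. One member passed, the 3p arm of let-7e. let-7e-3p had a lowest, median and highest of 36.4, 43.6 and 47.0 CPM in aged SAHA libraries, against 42.6, 50.2 and 56.2 CPM in young vehicle libraries, and 41.5 to 47.3 CPM in aged vehicle libraries. All 6 aged SAHA libraries lay below the young median and 3 lay below every young library. Its mean was 42.7 ± 4.40 CPM in aged SAHA and 50.2 ± 4.10 CPM in young vehicle libraries (SD, n = 6 and 8), a log2 fold change of -0.24 ± 0.08 (SE, edgeR adjusted p = 0.0431). With any 1 of 15 of the 19 libraries left out the call was lost; it remained without aged vehicle 3, young vehicle 3, aged SAHA 4 or aged SAHA 6. Over all 30 alternatives its adjusted p ran from 0.0242 to 0.131 and it was called in 7. let-7e-5p, cut from the same hairpin, was at 2105 ± 146 CPM in aged SAHA and 2212 ± 187 CPM in young vehicle libraries and did not pass (log2 fold change -0.07 ± 0.06 SE, edgeR adjusted p = 0.431).

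This was 1 of 19 members, against 71 of the 509 tested miRNAs, 13.9%, or 8.64% called lower. At an unadjusted p under 0.05 there were 6 members, against 32.8% of all tested miRNAs. Of these 5 were 3p arms with lower values in aged SAHA: let-7e-3p, let-7f-1-3p, let-7g-3p, miR-98-3p and let-7b-3p. let-7f-1-3p had a log2 fold change of -0.29 ± 0.12, let-7g-3p of -0.30 ± 0.13 and miR-98-3p of -0.20 ± 0.09 (SE, edgeR adjusted p 0.0991, 0.108 and 0.112 in that order). The sixth was let-7a-5p, at 8757 ± 782 CPM in aged SAHA and 7917 ± 498 CPM in young vehicle libraries, a log2 fold change of 0.15 ± 0.06 (SE, edgeR adjusted p = 0.0936). All 6 aged SAHA libraries lay above the young median for let-7a-5p, but 1 lay above the highest young library. It passed in 6 of 30 alternatives, among them without young vehicle 6 (adjusted p = 0.0442) and without aged SAHA 4 (adjusted p = 0.0469). Young vehicle 6 was the highest of its group and aged SAHA 4 lay below the mean of its group. Leaving out either widens the gap between the group means.

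let-7b-3p had a lowest, median and highest of 98.6, 128 and 176 CPM in aged SAHA libraries, against 128, 153 and 188 CPM in young vehicle libraries. Aged SAHA replicate 1 was the high one, and it was also the library least like its group. The log2 fold change was -0.23 ± 0.11 (SE, edgeR adjusted p = 0.132), and without that library it was -0.34 and passed (edgeR adjusted p = 0.0164). Leaving out the highest library of a group lowers the group's mean, so this pass is no added support. The median log2 fold change in this comparison was 0.05 for 5p members and -0.19 for 3p members, against -0.03 over all tested miRNAs. Of the 19 members 8 had a positive log2 fold change, against 45%, and no member had groups without overlap, against 3.54%.

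The ratio of 5p to 3p reads of a precursor compares its strands within a library, and library scaling cancels from it. For let-7b this ratio was higher in aged SAHA than in young vehicle mice. The hairpin, from RefSeq on GRCm38.p6 at chr15:85707319-85707403 on the plus strand, is shown because both arms named in this result come from it, with the 5p and 3p arms in capitals.
Mirlet7b: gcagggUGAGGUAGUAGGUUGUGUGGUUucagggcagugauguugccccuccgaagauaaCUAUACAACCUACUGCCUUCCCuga

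let-7b had 11.8, 17.2, 18.4, 18.4, 19.7 and 20.8 5p reads per 3p read in aged SAHA libraries, 13.7, 13.7, 14.0, 14.2 and 15.1 in aged vehicle libraries, and a lowest, median and highest of 11.4, 13.4 and 14.7 in young vehicle libraries. Of the 6 aged SAHA libraries 5 lay above all aged vehicle and all young vehicle libraries, while aged SAHA replicate 1, at 11.8, lay below every aged vehicle library. The mean was 17.7 ± 3.15 in aged SAHA, 14.1 ± 0.582 in aged vehicle and 13.4 ± 1.09 in young vehicle libraries (SD, n = 6, 5 and 8). Against young vehicle mice the log2 ratio was higher by 0.39 ± 0.10 (SE, limma adjusted p = 0.0124 over 180 arm pairs). This call held in all 25 alternatives, with a difference of 0.34 to 0.50 and an adjusted p of 5.77e-05 to 0.0379. Alternatives that changed only the aged vehicle libraries, the limma settings or the pairs tested kept the difference at 0.39 by construction. They bear on its adjusted p only. Against aged vehicle mice the difference of 0.30 ± 0.11 did not pass (SE, limma adjusted p = 0.0776). Without aged SAHA replicate 1 it was 0.42 and passed (limma adjusted p = 0.000828). That library had the lowest ratio of its group, so leaving it out raises the difference by construction. The pass is therefore no added support. Neither arm of let-7b passed on its own in either comparison: let-7b-5p had log2 fold changes of 0.09 ± 0.10 against aged vehicle and 0.15 ± 0.09 against young vehicle, and let-7b-3p -0.20 ± 0.12 and -0.23 ± 0.11.

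**Figure D4:**
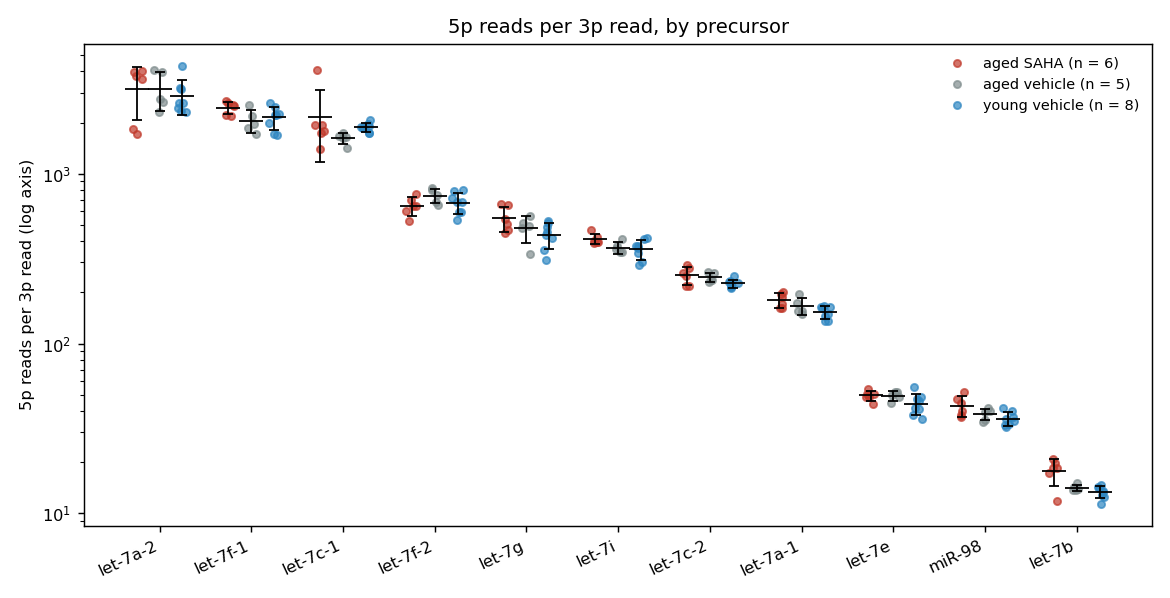
5p reads per 3p read of the 11 let-7 precursors on a log axis, with 1 point per library and bars for the mean and SD of aged SAHA (n = 6), aged vehicle (n = 5) and young vehicle (n = 8). For let-7b, 5 of 6 aged SAHA libraries lie at 17.2 to 20.8, above all 13 vehicle libraries, and 1 lies at 11.8.

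The 11 precursors differed far more from each other than between groups. let-7b had the lowest ratio, miR-98 averaged 43.1 ± 5.89 in aged SAHA, 38.3 ± 3.01 in aged vehicle and 36.0 ± 3.41 in young vehicle libraries, and let-7e 49.4 ± 3.26, 49.3 ± 3.15 and 44.3 ± 6.40 in the same order. let-7a-2, let-7c-1 and let-7f-1 had at least 1704, 1401 and 1684 5p reads per 3p read in every library, in that order. For let-7a, let-7c and let-7f the 5p reads of both hairpins stand over the 3p reads of one, so these ratios are not of a lone precursor, and those of let-7a-1 and let-7c-2 share their 3p reads.

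Of the 11 let-7 pairs, limma called 1, let-7b, between aged SAHA and young vehicle mice, against 17 of 180 pairs, 9.44%. At an unadjusted p under 0.05 there were 5, against 28.9% of all pairs, and 10 of the 11 had a positive difference, against 59.4%. No let-7 pair had groups without overlap, against 2.78%. Without aged SAHA replicate 1 the count was 3, against 32 of all 180 pairs, with let-7a-1 (0.27, limma adjusted p = 0.0439) and miR-98 (0.30, limma adjusted p = 0.0380) added to let-7b. Between aged SAHA and aged vehicle mice 0 of 11 passed, against 17 of 180, 9.44%, with 1 at an unadjusted p under 0.05, against 25.6%, 9 with a positive difference, against 59.4%, and none without overlap, against 6.67%. Without aged SAHA replicate 1 let-7b passed there too, as above, as 1 of 24 called among the 180 pairs. That library lay below the aged SAHA mean for let-7b, let-7a-1 and miR-98. Leaving it out therefore raises these differences by construction.

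For age, limma called 0 of 11 pairs, with 0 of them at an unadjusted p under 0.05, and 0 of 180 pairs in all, 0%, with 18 at an unadjusted p under 0.05, 10%. A positive difference was found for 9 of 11 let-7 pairs, against 51.1%. The adjusted p of the let-7 pairs ran from 0.556 to 0.930. let-7c-1 was lower in all 5 aged vehicle libraries, at 1410 to 1733 5p reads per 3p read, than in any young vehicle library, at 1736 to 2065, and was the only one of the 180 pairs without overlap, 0.556%. Its difference of -0.22 ± 0.18 did not pass (SE, limma adjusted p = 0.696), and it rests on at most 43 counts of the 3p arm per library.

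let-7d, which shares the seed and lies in the cluster with let-7a-1 and let-7f-1, had 4.30 ± 0.904 5p reads per 3p read in aged SAHA, 2.60 ± 0.210 in aged vehicle and 2.75 ± 0.393 in young vehicle libraries. Its log2 ratio was higher in aged SAHA than in aged vehicle by 0.70 ± 0.13 (SE, limma adjusted p = 0.000592). The difference between let-7d and the other precursors was not tested. The ratios named for its cluster partners did not pass there: let-7a-1 was at 0.12 ± 0.10 (SE, limma adjusted p = 0.423) and let-7f-1 at 0.27 ± 0.13 (SE, limma adjusted p = 0.190). Both 5p sequences are also encoded by hairpins on other chromosomes, as is the 3p sequence of let-7a-1. These ratios therefore do not measure the hairpins of this cluster alone.

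The miRNAs that share clusters with let-7 precursors were counted as a list of 13, with the 2 let-7d arms and 11 arms of miR-99, miR-100 and miR-125. For age edgeR called 0 of 13, against 2.16% of all tested miRNAs, with 0 at an unadjusted p under 0.05, against 15.7%. For SAHA against aged vehicle it called 2 of 13, against 4.32%, both let-7d arms: let-7d-5p at 0.33 ± 0.07 (SE, adjusted p = 0.00937) and let-7d-3p at -0.37 ± 0.08 (SE, adjusted p = 0.0124). The nearest of the others were miR-99a-5p and miR-99b-5p, each with an edgeR adjusted p of 0.0689. Between aged SAHA and young vehicle mice it called 4 of 13, against 13.9%: the 2 let-7d arms with miR-99a-5p and miR-99b-5p. miR-99a-5p, whose gene lies beside Mirlet7c-1, was lower at -0.26 ± 0.07 (SE, edgeR adjusted p = 0.0134), while let-7c-1-3p was at 0.01 ± 0.15 (SE, edgeR adjusted p = 0.968). miR-99b-5p, of the cluster that holds Mirlet7e, was lower at -0.35 ± 0.11 (SE, edgeR adjusted p = 0.0342). let-7e-3p was the called let-7 member there, in the main fit and in 7 of 30 alternatives. The other arms of that cluster were not called. let-7e-5p was at -0.07, miR-99b-3p at -0.19, miR-125a-5p at -0.08 and miR-125a-3p at -0.08 (edgeR adjusted p 0.431, 0.236, 0.440 and 0.661 in that order). The median log2 fold change of the 11 was -0.08 against aged vehicle and -0.08 against young vehicle mice.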

How the data were processed

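CA1 total RNA was made into TruSeq small RNA libraries, per the labels' protocols, and the submitters' processing notes name CASAVA 1.8.2, cutadapt, STAR, HTSeq and mm10, with no settings. The deposited files hold raw counts per mature miRNA name for 19 libraries. The treatment of reads matching several hairpins is not stated in them. The 4 summary lines held 0 and were left out of library sizes.

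From there, edgeR 4.0.16 (R 4.3.3) fitted all 19 libraries with 1 term per group: TMM scaling, filterByExpr (minimum count 10, total 15), robust quasi-likelihood test, Benjamini-Hochberg adjustment over 509 miRNAs, calls at adjusted p under 0.05. CPM are after TMM, except those of the cell type markers, which were scaled to library totals only. The 95% intervals take each SE as that of a normal variable. Strand ratios, log2 with 0.5 added to each count, were tested with limma 3.58.1 over 180 arm pairs. DESeq2 1.42.0 and limma-voom were alternatives, and each library was left out in turn. The scripts were tested on simulated data. Depth was 3585489 to 6808281 counts. All within-group pairs of libraries differed beyond sampling noise. All members and the listed neighbours are given. The members and lists were chosen with earlier results of these data known. Replicate numbers in the titles showed no pairing of libraries across groups, so the main fits carry no block, which was run as an alternative. Sequences are from RefSeq on GRCm38.p6, and all 19 members matched.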

Additional observations from a re-analysis of the deposited data

Results flagged for a closer look

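Of 93 group and measure combinations checked for a library standing apart from its group, 7 had one, where chance flags about 1 in 20. let-7a-1-3p was at 42.5 CPM in aged vehicle 4, below the rest of its group at 49.1 to 50.3 CPM, and let-7c-2-3p, which has the same sequence, was also at 42.5 CPM there. let-7b-3p was also lowest in aged vehicle 4, at 134 CPM, against 149 to 155 CPM in the others. let-7a-5p was at 10223 CPM in aged SAHA 6, above 8070 to 8796 CPM in the other aged SAHA libraries. The 5p to 3p ratio of let-7c-1 was 4091 in aged SAHA 6, against 1401 to 1933 in the others, with 15 counts of the 3p arm in that library. let-7c-1-3p was at 4.91 CPM in young vehicle 8, below 5.98 to 6.80 CPM in the other young vehicle libraries. The 5p to 3p ratio of let-7a-2 was 4312 in young vehicle 5, against 2316 to 3189 in the others, with 12 counts of the 3p arm.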

How the results depend on the processing

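The count of 0 members called for age held under every alternative run. For SAHA against aged vehicle the count was 0 except for 1 with DESeq2 and 1 with limma-voom, let-7g-5p in both. For aged SAHA against young vehicle the count of 1 became 0 with no filter, 2 with CPM of 10 in 5 libraries, 2 with DESeq2, 0 with only the 2 groups compared, 0 with the 3 most abundant miRNAs left out, and 0 to 2 with a library left out. Where it stayed at 1 the member could change: it was let-7a-5p, higher, with DESeq2 size factors, with library size only and without young vehicle 6, and let-7b-3p, lower, with limma-voom, without aged SAHA 1 and without aged SAHA 1 and young vehicle 6. let-7e-3p was not called in these (adjusted p of 0.0565, 0.131 and 0.105 with those scalings and limma-voom, and 0.0864 without aged SAHA 1). The replicate block also gave 0. Replicate numbers showed no pairing of the libraries, with correlations of -0.33 to 0.34 between libraries of the same number. In 1 of 16 checks, which reuse libraries between comparisons, a library was closest to its own number. The check gives no ground for a block, but it cannot show that the numbers carry no design information. With the block let-7e-3p had an edgeR adjusted p of 0.101. For strand ratios, leaving out aged SAHA 1 and young vehicle 6 gave 1 call against aged vehicle and 3 against young vehicle; with 1 library left out the counts were 0 to 1 and 1 to 3. Without the 3 most abundant miRNAs in the denominator, the summed 5p share was 11.9% in aged SAHA, 11.8% in aged vehicle and 11.7% in young vehicle libraries. No called value changed sign. Over all tested miRNAs, the 11 calls for age became 20 with DESeq2 and 23 with limma-voom. They became 19 with only 2 groups and 18 without aged SAHA 1 and young vehicle 6. The 22 for SAHA became 46, 46, 16 and 37 in that order of settings. There were 11 without aged SAHA 6, 13 without aged vehicle 1 and 14 without aged vehicle 3. Between 491 and 518 miRNAs were tested in these settings, against 509 in the main fits. Library size scaling moved the split of calls of aged SAHA against young vehicle to 51 higher and 33 lower, with 27 and 44 after TMM, and that of aged SAHA against aged vehicle to 11 and 16, with 6 and 16 after TMM (10 and 16 with DESeq2 size factors). The causes were not tested. let-7a-2-3p and let-7c-1-3p were below the CPM 10 filter, and the let-7a-2 pair below that of 10 counts in both arms. At 8 to 43 counts per library, these arms set the widest intervals.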
